A study of Homo sapiens with 79 samples.

Results

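SUZ12 fRIP is formaldehyde RNA immunoprecipitation and sequencing of the RNA recovered with an antibody to SUZ12, a core subunit of Polycomb repressive complex 2 (PRC2), from K562 cells, an established human erythroleukemia line. The 3 SUZ12 fRIP libraries were compared with the 3 libraries of input set 1, RNA taken from cell lysate before the antibody was added, so 6 of the 79 libraries of the series enter the main comparison. The SUZ12 fRIPs and the inputs share the cell line, crosslinking in 0.1% formaldehyde, lysis by sonication and ribosomal RNA depletion, but input was set aside before the lysate was filtered, cleared on beads and frozen, so a difference from input cannot be assigned to the antibody step alone. A lone cell line and a lone SUZ12 antibody were used, no library of a control antibody was used here, and replicates came from different dates and lysates according to the study's methods. The labels number 3 input sets without tying SUZ12 to one of them. The authors' mean input value for SUZ12 matched the mean of set 1 within 0.1 on the log2 scale for 99.99% of 17146 genes, against 15.03% for set 2 and 14.505% for set 3. Fold changes below are therefore relative to set 1, on the scale of log2(FPKM + 1), where FPKM counts fragments relative to transcript length and library size.

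PRC2 places methyl groups on lysine 27 of histone H3 and is known for keeping genes silent. Its core consists of SUZ12, EED, a histone binding protein (RBBP4 or RBBP7) and a methyltransferase (EZH2 or EZH1), and accessory subunits such as JARID2, AEBP2, MTF2, PHF1 and PHF19 join alternative forms of the complex. PRC2 subunits have been recovered with many nascent and mature RNAs, and which features of an RNA go with that recovery is the question the comparison of fRIP with input addresses.

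In units of 1e6 fragments, the depth of the 3 SUZ12 libraries was 21.1 to 24.3 and that of the 3 input libraries 21.1 to 23.7, as read from the FPKM step that 1 fragment adds in genes with 1 isoform. Pearson correlation of log2(FPKM + 1) across genes was 0.975 to 0.980 between SUZ12 libraries, 0.973 to 0.983 between input libraries and 0.905 to 0.914 between a SUZ12 and an input library. RNAs of the mitochondrial genome made up 1.20 to 1.45% of the summed FPKM of the SUZ12 libraries and 9.67 to 12.6% of that of input set 1. FPKM is a share of the library, and the part of this difference in the values of other RNAs was not tested. The erythroid transcription factor gene GATA1 was detected in all 6 libraries at 33.1 to 73.3 FPKM, and of 12 marker genes of lymphoid, myeloid and epithelial cells 5 did not pass the filter on low values.

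Of 25442 genes tested, 3421 (13.4%) were higher in SUZ12 fRIP than in input and 2203 (8.66%) were lower, at an adjusted p under 0.05 and a change over 2-fold. Of the higher genes 3384 had every SUZ12 library above every library of set 1, and 3330 were above all 9 input libraries. Of the lower genes 2179 were below every library of set 1 and 1787 were below all 9. The balance of the calls differed by kind of RNA. Of 13618 mRNAs tested 2770 were higher and 1008 were lower, with a median log2 fold change of 0.16. Of 5245 long noncoding RNAs (lncRNAs) 293 were higher and 452 lower (median -0.11), and of 5247 pseudogenes 257 were higher and 588 lower (median -0.18). Of all calls 60.8% were in the higher direction. Centring each library on its median moved the median of all genes from -0.02 to 0.15 and this share to 73.2%.

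The mRNAs of PRC2 itself were among those recovered with SUZ12. SUZ12 mRNA (chromosome 17, 30264026 to 30328057, hg19) measured 123, 136 and 123 FPKM in the SUZ12 libraries and 35.6, 45.5 and 41.7 FPKM in input. The groups did not overlap, and the log2 fold change was 1.62 (SE 0.14, adjusted p = 2.9e-15). Of its 25-base words 15.6% also occur in other transcripts, mainly copies such as SUZ12P1. EZH2 mRNA, for the methyltransferase, measured 293, 315 and 371 FPKM against 73.4, 103 and 102 FPKM in input (log2 fold change 1.81, SE 0.19, adjusted p = 7.9e-12). For both genes SUZ12 fRIP had the highest mean of the 24 fRIPs.

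EZH1 (1.60), MTF2 (1.40) and EED (1.29) also passed, so that 5 of 12 PRC2 genes were higher and 0 were lower against input set 1, with a median of 0.94, where 13.4% and 8.66% of all genes were. Of all mRNAs 20.3% were higher, and of mRNAs of 9 to 12 exons 35.5%. The PRC2 genes had a median of 9.49 exons. Their median difference from the median of mRNAs of similar exon number was 0.64, with 8 of 11 above it. With all 9 inputs 6 were higher and 1 lower, as JARID2 (1.003) and C17orf96 (-1.18) passed. EED fell below 2-fold against input set 2 (0.80) or set 3 (0.93). RBBP4 lay at the border, with 224.9, 205 and 232 FPKM against 114, 110 and 108 FPKM and a log2 fold change of 0.99, which became 1.01 without input library 1 and 1.04 without SUZ12 library 2, and 43.7% of its words are shared with copies. AEBP2 (0.89), JARID2 (0.86), PHF1 (0.65) and RBBP7 (0.56) did not reach 2-fold against set 1. After centring each library on its median 8 of 12 were higher, as RBBP4 (1.15), AEBP2 (1.06) and JARID2 (1.02) then passed. PHF1 passed against set 2 (1.02), and JARID2 against set 2 (1.07) and set 3 (1.09). PHF19 measured 122, 105 and 155 FPKM against 107, 130 and 135 FPKM, which overlap (log2 fold change 0.03, SE 0.25). C17orf96, for the PRC2 partner also named EPOP, was listed at 0.34 to 0.44 FPKM in SUZ12 fRIP and 1.22 to 1.66 FPKM in input (-0.80), and it passed as lower against set 2 (-1.60), set 3 (-1.15) and with pseudocounts of 0.1 (-1.64) or 0.5 FPKM (-1.11). With the isoforms annotated as protein coding alone, an alternative chosen after seeing the data, SUZ12 (1.38), EZH2 (1.04) and EZH1 (1.11) still passed, and MTF2 (0.64) and EED (0.40) did not.

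**Figure D1:**
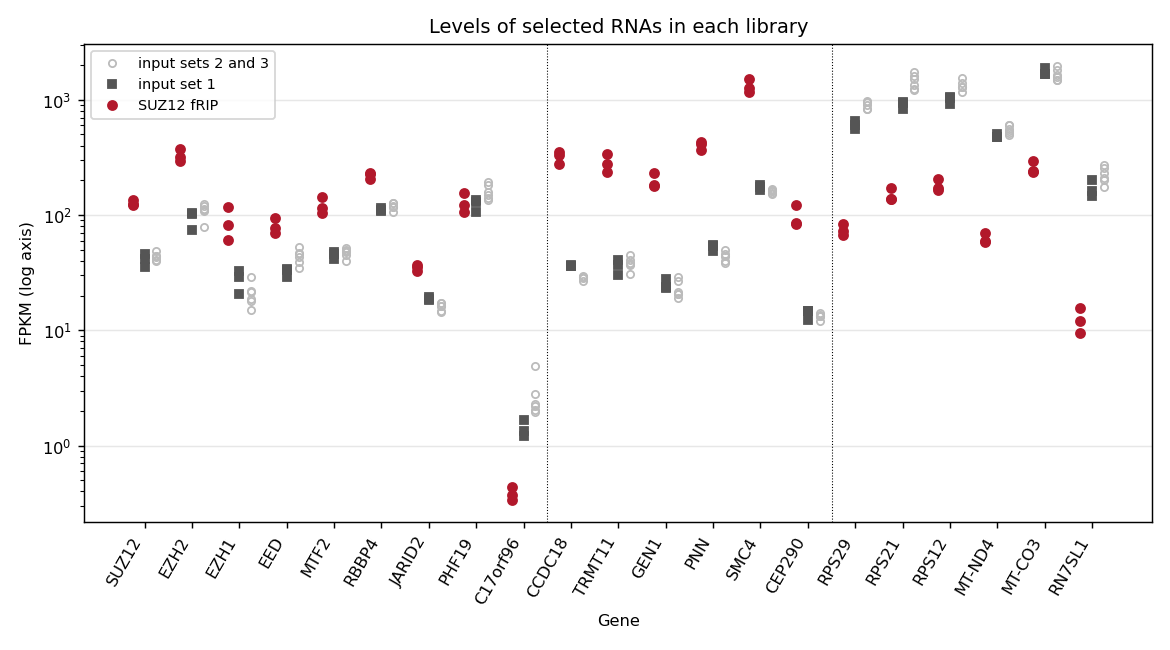
FPKM (log axis) of 21 RNAs in each of 3 SUZ12 fRIP libraries (red circles), 3 libraries of input set 1 (grey squares) and 6 libraries of input sets 2 and 3 (open circles), with PRC2 genes on the left, other higher mRNAs in the middle and lower RNAs on the right. The SUZ12 libraries lie above all 9 inputs for SUZ12 and EZH2, among them for PHF19, and below them for RPS29 and MT-ND4.

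CCDC18, a coiled-coil gene on chromosome 1 (93645476 to 93744287), measured 331, 275 and 350 FPKM in SUZ12 fRIP and 36.9, 36.4 and 35.8 FPKM in input (8.51-fold, log2 fold change 3.09, SE 0.14, adjusted p = 1.1e-25). TRMT11, for a subunit of a tRNA methyltransferase, measured 276, 236 and 340 FPKM against 29.9, 40.6 and 37.1 FPKM (2.94, SE 0.21). GEN1, for a nuclease that resolves Holliday junctions, measured 178, 181 and 230 FPKM against 28.0, 23.2 and 24.0 FPKM (2.92, SE 0.17). In each of these genes the lowest SUZ12 library was several times the highest of the 9 inputs.

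PNN, for the splicing-associated protein pinin, was higher by 2.92 (SE 0.18), TRIM66 by 3.07, WDR52 by 3.00 and CCDC41, for a centriolar appendage protein also named CEP83, by 2.99. With coding isoforms alone the last 3 gave 2.45, 2.39 and 2.36. For CCDC18, TRIM66, WDR52, CCDC41, TRMT11, GEN1 and PNN the SUZ12 mean was the highest of the 24 fRIPs. WDR52 shares 87.0% of its 25-base words with other transcripts on the same strand, so its level is uncertain, and reads of PNN could come in part from an antisense RNA over 16.9% of its words, as no source used here gives the strand setting of the counting. The rule for named genes also returned 5 mRNAs whose reads cannot be assigned to them alone. RP11-637O19.3, ARHGAP19-SLIT1, ZFP91-CNTF and TVP23C-CDRT4 are read-through annotations that share 97.2%, 89.4%, 99.0% and 99.2% of their words with the genes they span. ATXN3L, a gene of 1 exon at 449 to 570 FPKM against 40.3 to 41.1 FPKM, lies opposite the exons of the lncRNA GS1-600G8.3 over 60.4% of its length.

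The mRNAs that fell most against input were for ribosomal proteins, mitochondrial proteins and IFITM2. RPS29, for a small subunit ribosomal protein, measured 71.9, 67.7 and 83.8 FPKM in SUZ12 fRIP and 554, 608 and 655 FPKM in input (log2 fold change -3.01, SE 0.23, adjusted p = 3.8e-17), although 45.02% of its words are shared with copies. RPS21 measured 137, 137 and 173 FPKM against 837, 939 and 952 FPKM (-2.61, SE 0.21). IFITM2, for an interferon-induced membrane protein, measured 16.9, 8.48 and 13.8 FPKM against 107, 86.3 and 97.9 FPKM (-2.84, SE 0.38, or -1.49 with coding isoforms alone), and 27.0% of its words are shared, mainly with IFITM3. All SUZ12 libraries lay below all 9 inputs for these 3 genes.

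The other lower mRNAs of the rule were 8 of the mitochondrial genome, for subunits of the respiratory chain and the ATP synthase, and the read-through BLOC1S5-TXNDC5 (99.3% of words shared). MT-ND4 measured 59.2, 58.5 and 69.9 FPKM against 499, 474 and 473 FPKM (-2.93, SE 0.23), and 32.3% of its words recur in nuclear copies. MT-CO3 measured 294, 235 and 239 FPKM against 1890, 1685 and 1680 FPKM (-2.78, SE 0.24). CBX3 fRIP, an immunoprecipitation of the heterochromatin protein HP1 gamma, held about as little, 1.42 to 1.83% mitochondrial RNA. For MT-CO3 the difference between SUZ12 and CBX3 fRIP was -0.12 (adjusted p = 0.82), and for MT-ND4 it was -0.54 (adjusted p = 0.081).

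The number of exons had the strongest correlation with the SUZ12/input ratio among the properties examined. Exon number was averaged over the isoforms of a gene by their input level, and 11316 mRNAs of at least 1 FPKM in input were used. Spearman correlation of SUZ12/input with exon number, across genes, was 0.554 ± 0.020 (SD, n = 3 libraries). Genes are not independent replicates, so the value is a description. The median log2 ratio was -0.60 for mRNAs of 1 exon, -0.51 for 2 to 3 exons and -0.15 for 4 to 5 exons. It was 0.24 for 6 to 8 exons, 0.68 for 9 to 12, 1.05 for 13 to 20 and 1.26 for 21 to 30, and reached 1.31 in the 118 mRNAs of over 30 exons. The share of mRNAs called higher rose in the same order, from 0.78% at 1 exon to 67.8% over 30 exons. The share called lower was 21.5% at 1 exon, 0.495% at 13 to 20 exons, 0.604% at 21 to 30 and 0% over 30. Each input library set against the other 2 gave 0.002 ± 0.010, and the medians of single input libraries in these bins ran from -0.03 to 0.04.

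CBX3 fRIP rose less with exon number, from -0.09 for 1 exon to 0.36 for 21 to 30 exons (correlation 0.251 ± 0.014). STAG2 fRIP, of a cohesin subunit that served in the study as a control for background binding, ran from 0.02 to 0.12 at 9 to 12 exons and to -0.10 over 30 exons (0.088 ± 0.052, n = 2). The 3 SUZ12 libraries were all above the 3 CBX3 libraries, and an exact permutation test of 3 against 3 gave p = 0.1, the smallest it allows. Set directly against the CBX3 libraries, SUZ12 fRIP correlated with exon number at 0.504 ± 0.029, and against STAG2 at 0.463 ± 0.026. In the direct comparison with CBX3 fRIP gene span (0.599 ± 0.009) and GC content (-0.571 ± 0.063) had larger correlations than exon number, and span after exon number gave 0.387 where exon number after span gave 0.260.

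**Figure D2:**
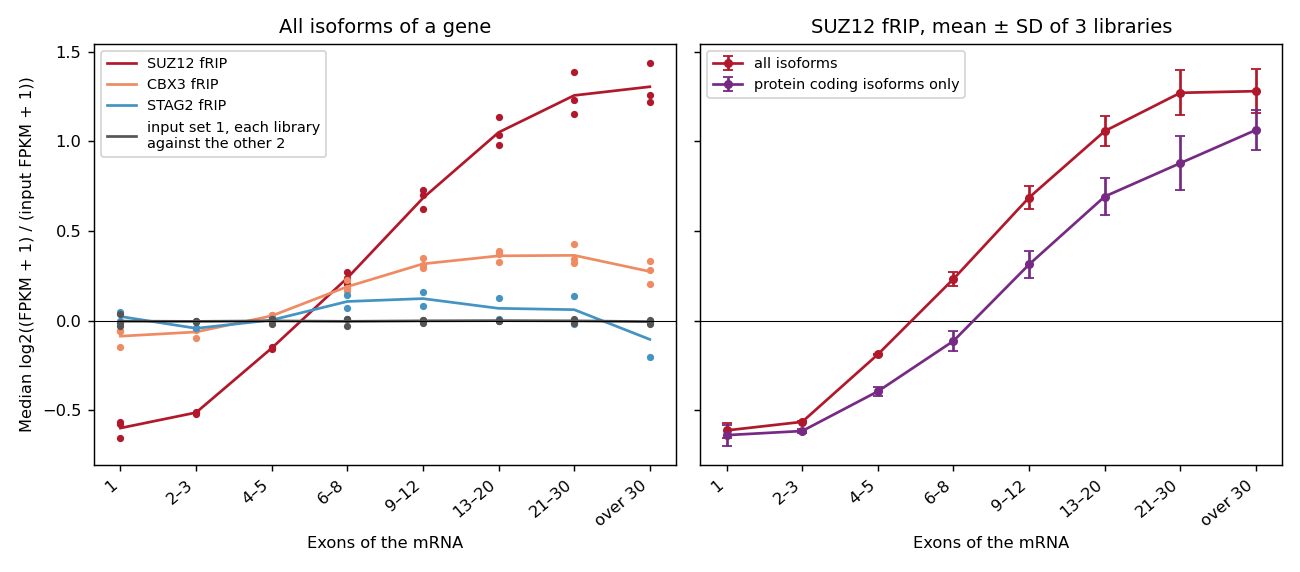
Median log2 ratio of fRIP to input (FPKM + 1) by the number of exons of the mRNA. Left, SUZ12 (red), CBX3 (orange) and STAG2 (blue) fRIP and each input library against the other 2 (grey), with points for libraries and lines for their mean. SUZ12 runs from -0.60 to 1.31 and the single inputs run from -0.03 to 0.04. Right, SUZ12 fRIP with all isoforms of a gene or the protein coding ones alone, mean ± SD of 3 libraries, in the genes that have both. The rise with exon number is present in both, and the coding values lie lower.

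Transcript length was compared next. Length alone correlated at 0.270 ± 0.018. After a regression on length the correlation with exon number was 0.453 ± 0.026, and after a regression on exon number that with length was 0.080 ± 0.027. Among mRNAs of 2 to 3 kb the median rose from -0.64 for 1 exon to -0.04 for 4 to 5 exons, 0.81 for 9 to 12 exons and 1.07 for 13 to 20 exons. Among mRNAs of 9 to 12 exons it was -0.04 for the 24 under 1 kb, 0.55 at 1 to 2 kb, 0.81 at 2 to 3 kb, 0.75 at 3 to 5 kb and 0.53 over 5 kb.

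The length of the gene on the genome, introns included, also went with the SUZ12 ratio. Gene span correlated at 0.442 ± 0.008, from a median of -0.54 under 5 kb to 0.96 over 100 kb. After gene span the correlation with exon number was 0.367 ± 0.026, and after exon number that with gene span was 0.193 ± 0.016. Within 9 to 12 exons the median rose from 0.32 at 5 to 10 kb to 1.06 over 100 kb. Span thus went with the ratio within this range of exon number, and exon number did so after a regression on span. In CBX3 fRIP span did not rise with the ratio (-0.010 ± 0.027). The lncRNAs followed the same order as mRNAs, with medians of -0.56 for 1 exon, -0.38 for 2 to 3, 0.20 for 4 to 5, 0.86 for 6 to 8 and 1.04 for the 24 lncRNAs of over 8 exons.

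The correlation with exon number was the highest of the 24 fRIPs, all computed against the same input set 1 and so sharing those libraries. Phospho-CBX3 followed at 0.310 ± 0.014 and HDAC1 at 0.272 ± 0.010. EZH2 fRIP, of the catalytic subunit of the same complex, gave -0.072 ± 0.075 (n = 2) with exon number and 0.225 ± 0.025 with length. Input sets 2 and 3 themselves gave -0.132 and -0.118 with exon number against set 1, and their single libraries -0.287 to -0.163 with length. With the mean of all 9 inputs SUZ12 gave 0.535 with exon number. For length SUZ12 ranked 4 of 24, after HUR (0.365), HDAC1 (0.353) and IMP1 (0.279). The input set of the other fRIPs was not examined here, so their values and the ranks may carry such offsets.

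**Figure D3:**
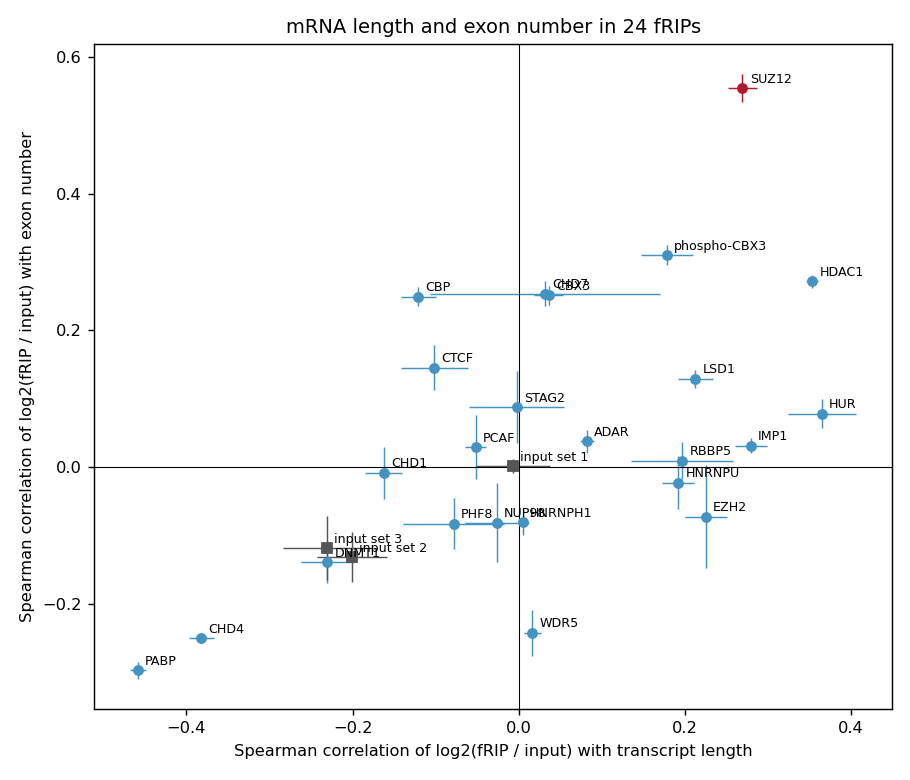
Spearman correlation of log2(fRIP/input) with exon number (vertical axis) against that with transcript length (horizontal axis) for 24 fRIPs (circles) and 3 input sets (squares), mean ± SD over libraries across 11316 mRNAs. SUZ12 (red, 0.554 and 0.270) lies above the other 23 in exon number and among the upper ones in length.

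Sequence composition of the most expressed isoform varied with the SUZ12 ratio too. The share of purines correlated at 0.274 ± 0.016, the highest of the 24 fRIPs, with a median log2 ratio of -0.36 under 46% purines and 1.10 over 58%. GC content correlated at -0.224 ± 0.052, from a median of 0.69 under 40% GC to 0.01 over 60%, whereas in CBX3 fRIP it correlated at 0.309 ± 0.031. Input libraries set against one another spread widely in these measures, by an SD of 0.252 for GC content and 0.135 for purines. GAAGNNGA is a simple form of the purine motif that the study found in these same libraries, so it is not independent of them. It occurred in 72.7% of 11330 mRNAs, counted on the transcript strand of the most expressed isoform with overlaps allowed, and its reverse complement TCNNCTTC occurred in 60.1%. Matches per kilobase correlated with the ratio at 0.197 ± 0.010 for GAAGNNGA and -0.017 ± 0.012 for TCNNCTTC.

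Because long genes of many exons hold more matches, mRNAs of equal exon number were compared. At 9 to 12 exons the median rose from 0.52 ± 0.04 with 0 GAAGNNGA matches to 1.03 ± 0.12 with over 5 (SD, n = 3), while it was 0.75 with 0 TCNNCTTC matches and 0.49 with over 5. At 1 to 3 exons it rose from -0.56 to -0.40, so mRNAs of few exons stayed below input even with over 5 matches. Purine share at 9 to 12 exons gave 0.26 under 48% and 1.12 over 54%.

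Coding windows of 90 bases, each the one of its gene with the most matches, show what such stretches look like. Not all higher genes hold them: the best windows of CCDC18, SMC4, ATXN3L and ARHGAP19-SLIT1 hold 1 match each, of 2, 5, 3 and 2 in their coding sequences. EIF5B is a translation initiation factor gene that the study showed as an example. It measured 86.4, 91.1 and 115 FPKM against 40.2, 42.6 and 40.3 FPKM (1.22, SE 0.22, and 0.98 with coding isoforms alone). Its window in exon 10 (chr2:99992868-99992957, plus strand) holds 10 overlapping matches of 28 in the coding sequence. The ZFP91-CNTF window in exon 5 (chr11:58378423-58378512, plus strand) holds 4 of 13. CEP290, a centrosomal gene added after its values were seen, measured 84.0, 85.2 and 121 FPKM against 12.4, 14.6 and 14.7 FPKM, and holds 2 matches in a window of exon 11 (chr12:88522723-88522812, minus strand) and 19 in all. RPS29, lower in SUZ12 fRIP, holds 0 and is shown from exon 2 (chr14:50052678-50052767, minus strand). The sequences are those of GRCh37, the assembly also named hg19, 5′ to 3′ on the transcript strand, with GAAGNNGA matches in capitals.
EIF5B: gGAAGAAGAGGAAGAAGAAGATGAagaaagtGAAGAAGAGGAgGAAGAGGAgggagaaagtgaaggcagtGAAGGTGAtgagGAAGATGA
ZFP91-CNTF: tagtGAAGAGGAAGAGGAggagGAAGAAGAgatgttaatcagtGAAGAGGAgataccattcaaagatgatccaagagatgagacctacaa
CEP290: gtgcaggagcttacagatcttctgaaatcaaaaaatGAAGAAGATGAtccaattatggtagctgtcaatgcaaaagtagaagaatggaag
RPS29: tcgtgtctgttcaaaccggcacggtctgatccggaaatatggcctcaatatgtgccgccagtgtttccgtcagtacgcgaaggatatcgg
The EIF5B window is 91.1% purine and that of RPS29 is 48.9%. A match describes the letters of a transcript and is not evidence of a binding site.

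Most centrosome genes were higher. Of 44 centrosome and centriole genes tested 37 were higher and 0 lower (median 1.76). Over all genes tested 13.4% were higher and 8.66% lower, the shares against which this list and those after it are to be read. CEP290 was higher by 2.70 (SE 0.17), PCM1, for the scaffold of centriolar satellites, by 2.16 and KIAA1009, for the centrosomal protein CEP162, by 2.76 (2.07 with coding isoforms alone). SASS6, for the cartwheel protein of new centrioles, was higher by 2.55, with 106, 106 and 125 FPKM against 17.004, 18.2 and 19.7 FPKM. In SASS6 the isoforms annotated as protein coding were listed near 0 in all SUZ12 libraries and at 13.9 to 15.4 FPKM in input (-3.94, SE 0.19), so its higher level came from other isoforms.

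Of 31 kinesin motors 18 were higher and 0 lower (median 1.11), led by KIF15, which slides spindle microtubules, at 126, 104 and 151 FPKM against 22.3, 20.9 and 22.9 FPKM (2.46, SE 0.13), and including KIF18A (2.31) and the kinetochore motor CENPE (2.30). The median difference of a kinesin gene from the median of mRNAs of its own exon class was 0.19. Of 44 kinetochore and spindle genes 19 were higher, 1 lower and 24 neither (median 0.81), with a median difference from the own exon class of 0.25. With coding isoforms alone 11 were higher and 5 lower, and the lower count was 4 against input set 2 or set 3. CENPC and CENPK, for proteins of the inner kinetochore, were higher by 2.60 and 2.36 (0.92 and 2.27 with coding isoforms alone, where CENPC lost its call), and BUB1B, for a checkpoint kinase whose reads are in part shared with a read-through, by 2.57 (1.80 with coding isoforms alone). The lower one was MAD2L1, for a short checkpoint protein, at 17.4, 19.5 and 21.8 FPKM against 34.5 to 45.8 FPKM (-1.05), which became -0.97 without SUZ12 library 1, -0.98 without input library 2 and -0.99 without input library 3.

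Of 22 genes for SMC proteins, cohesin and condensin 18 were higher and 0 lower (median 1.34), with a median difference from the own exon class of 0.22, and with coding isoforms alone 10 were higher. SMC4, a condensin ATPase, reached 1176, 1273 and 1509 FPKM against 163, 182 and 176 FPKM (2.91, SE 0.14). Isoforms with a retained intron held 708, 816 and 901 FPKM of it in SUZ12 fRIP and 71.4, 71.7 and 72.8 FPKM in input, and the coding isoforms alone gave 1.64 (SE 0.15). RAD50 and SMC6, for repair ATPases of the same family, were higher by 2.55 (1.35 with coding isoforms alone) and 2.12.

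Chromatin remodelling and DNA repair genes showed the same direction. Of 23 remodeller ATPases 22 were higher and 0 lower (median 1.71), among them CHD6 (2.32, and 1.42 with coding isoforms alone), CHD9 (2.22), CHD1 (1.96) and SMARCA5 (1.42). CHD3 had the largest value of the list, but its libraries overlapped, with 71.6, 417 and 209 FPKM against 17.9, 104 and 17.1 FPKM (2.49, SE 0.83, or 1.27 with coding isoforms alone), and its call was lost without SUZ12 library 2 (1.91), input library 1 (2.09) or input library 3 (2.06). Of 28 DNA damage kinases and repair scaffolds 24 were higher and 0 lower (median 1.59), led by the helicases WRN (2.70) and BRIP1 (2.59) and the kinase ATR (2.57). ATR measured 125, 115 and 160 FPKM against 22.6, 21.4 and 20.2 FPKM.

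Of 14 golgins and coiled-coil tethers of the Golgi and endosomes 11 were higher and 0 lower (median 1.58), with GOLGA1 at 2.46, EEA1 at 2.26 (1.32 with coding isoforms alone) and TPR, a coiled-coil nuclear pore protein, at 2.41. TPR measured 609, 570 and 755 FPKM against 120, 119 and 119 FPKM. Of 29 nucleoporins 12 were higher and 0 lower (median 0.89), including NUP107 (1.75) and NUP35 (1.62, and 0.96 with coding isoforms alone). With coding isoforms alone 6 nucleoporins were higher and 3 lower, after centring 18 were higher, and the lower count was 1 without SUZ12 library 3. Gene by gene, the median difference of nucleoporins from the median of mRNAs of the same exon class was 0.02, whereas that of centrosome genes was 0.95.

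The SR proteins and SR-related splicing factors stood farther above their exon class than any other list of the 25. Of 36 tested 28 were higher and 0 lower (median 1.54), although they have a median of 7.69 exons, and their median difference from mRNAs of the same exon class was 1.33. LUC7L3, for a protein tied to the U1 particle, measured 520, 507 and 481 FPKM against 77.9, 75.6 and 80.1 FPKM (2.67, SE 0.13). PNISR measured 811, 747 and 629 FPKM against 138, 115 and 119 FPKM (2.54, SE 0.16), of which retained-intron isoforms held 534, 440 and 364 FPKM against 79.9, 60.7 and 62.5 FPKM. SRRM1 was higher by 2.34 and SRSF11 by 1.52. With coding isoforms alone 19 SR genes were higher and 3 lower.

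Most ribosomal protein genes and many respiratory chain genes were lower. Of 84 cytosolic ribosomal protein genes 57 were lower and 0 higher (median -1.63), with RPS12 at 165, 171 and 205 FPKM against 916, 1053 and 1040 FPKM (-2.47, SE 0.23), and 3 of 84 had a ratio above 0. Many have processed copies that share reads. Of 81 nuclear genes of the respiratory chain 43 were lower and 2 higher (median -1.10). COX7C and COX8A, for small subunits of cytochrome oxidase, measured 61.6 to 83.4 FPKM against 298 to 343 FPKM (-2.23) and 37.7 to 52.8 FPKM against 191 to 204 FPKM (-2.09). Both higher records, of NDUFB8 and SDHD, are second annotations that overlap neighbouring genes on the same strand over their whole length, and SDHD lost its call without SUZ12 library 1 (0.92).

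Of 28 RNAs of the mitochondrial genome tested 15 were lower and 0 higher (median -2.81). They comprised 13 mRNAs, from MT-ATP6 (-2.96) to MT-ND5 (-2.32), and the tRNAs MT-TC and MT-TT, which were listed at 0 in SUZ12 libraries 1 and 2 and at 896 and 448 FPKM in library 3, against 1497 to 4542 FPKM in input. The calls of both tRNAs were lost without SUZ12 library 1 or 2 (-6.67 for MT-TC and -6.48 for MT-TT in each case) and without any input library (-8.02 to -8.69 for MT-TC and -7.74 to -8.12 for MT-TT).

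The remaining protein coding lists had fewer calls. Of 39 translation initiation factors 7 were higher and 8 lower (median 0.13), where 13.4% and 8.66% of all genes were, with EIF5 (1.86, or 1.07 against set 2 and 1.08 with coding isoforms alone) and EIF2B5 (1.81) higher and EIF4H (-1.23) and EIF3L (-1.21, and -0.34 with coding isoforms alone, not called) lower. Without SUZ12 library 2 the lower count was 5, after centring it was 3, against set 3 it was 13, and with coding isoforms alone 3 were higher and 9 lower. EIF4A2, at 583, 592 and 774 FPKM against 157, 177 and 169 FPKM (1.94), was mostly retained-intron isoform (403, 472 and 601 FPKM in SUZ12 fRIP), and its coding isoforms gave -0.62 (SE 0.36). Of 37 proteasome subunits 6 were lower, led by PSMB2 (-1.87), and 2 were higher, PSMC1 (1.07) and PSMD12 (1.06). Those 2 fell below 2-fold without input library 1 (0.97 and 0.95) and PSMD12 also without SUZ12 library 3 (0.94), and with coding isoforms they gave -0.13 and -0.36. They also missed 2-fold with all 9 inputs (0.78 and 0.80), where 13 proteasome genes were lower and 0 higher, and 17 were lower against set 3. Of the proteasome genes 4 were higher and 4 lower without SUZ12 library 2, 0 were higher without input library 1, and 11 were lower with coding isoforms alone.

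Of 449 C2H2 zinc finger genes named ZNF 37 were higher and 5 lower (median 0.23), where 13.4% and 8.66% of all genes were, with ZNF326 at 2.10 (1.20 with coding isoforms alone). The higher count was 61 with all 9 inputs and 89 against set 2, where 4218 of 25442 genes were. The lower count was 15 against set 2, 14 against set 3 or with a pseudocount of 0.1 FPKM, 10 with a pseudocount of 0.5 FPKM, 9 without input library 2 and 8 without SUZ12 library 1 or input library 3. The lower ones were ZNF121 (-1.83, and 0.08 with coding isoforms alone), ZNF587B (-1.48), ZNF664 (-1.08, or -0.97 without SUZ12 library 3 and -1.79 with coding isoforms alone), ZNF524 (-1.06) and ZNF154 (-1.04). Of 34 replication-dependent histone genes, of 1 exon, 0 were higher and 3 lower (HIST1H2BK, HIST3H2A and HIST1H4C, -1.30 to -1.16), and HIST1H4C gave -0.95 without SUZ12 library 2. Against input set 3 alone 27 histone genes were lower. Of 22 immediate early genes 0 were higher and 2 lower, ZFP36L2 (-1.30) and BTG2 (-1.16, or -0.97 with all 9 inputs), and the higher count was 1 without SUZ12 library 1.

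The calls among PRC1 and HOX genes, partners and known targets of PRC2, are too few to read as a departure from all genes. Of all genes 13.4% were higher and 8.66% lower. Of 22 PRC1 genes, for the complex that ubiquitinates histone H2A and reads the PRC2 mark, 2 were higher and 1 lower (median 0.06). PHC3 was higher by 1.60 (66.9, 71.1 and 62.3 FPKM against 22.9, 19.98 and 21.3 FPKM) and KDM2B by 1.14, or 0.93 without SUZ12 library 1, and CBX6 was lower (-1.10, or -0.93 after centring, where it was not called). The higher count was 4 against set 2 or after centring and 1 without SUZ12 library 1, and the lower count was 2 without SUZ12 library 1 or 3 and against set 2 or set 3. Of 13 HOX genes that passed the filter, of 39, 0 were higher and 1 was lower: HOXB9, at 17.5, 18.2 and 22.2 FPKM against 48.4, 59.5 and 61.8 FPKM (-1.51, SE 0.23). The higher count was 1 without SUZ12 library 3 or input library 1, and the lower count was 2 against set 3. HOX genes had a median of 2 exons, and of mRNAs of 2 to 3 exons 2.15% were higher. Their median difference from mRNAs of the same exon class was 0.24, with 11 of 13 above their class. For PRC1 genes that difference was -0.17.

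Erythroid genes varied between libraries of the same group, in which fewer cells of a state and less RNA per cell cannot be told apart. HBE1, for the embryonic globin chain, measured 88.7, 110 and 324 FPKM in SUZ12 fRIP and 208, 645 and 636 FPKM in input, so SUZ12 library 3 exceeded input library 1. ALAS2, for the first enzyme of heme synthesis, measured 7.77, 11.9 and 26.3 FPKM against 11.3, 39.4 and 38.5 FPKM in the same order of libraries. Of 16 erythroid genes 3 were lower, among them HBE1 and HBA1, and 1 was higher (TFRC, the transferrin receptor, 1.39). The lower count was 11 without SUZ12 library 3 or input library 1, 2 without SUZ12 library 1, and 1 without SUZ12 library 2, input library 2 or input library 3. It was 8 with all 9 inputs, 11 with set 3, and 0 when the 6 libraries were fitted alone. The calls of HBE1 and HBA1 were lost without SUZ12 library 1 (-1.22 and -1.53) or 2 (-1.37 and -1.5002) and without input library 2 (-1.30 and -1.54) or 3 (-1.31 and -1.46). TFRC measured 642, 722 and 1056 FPKM against 297, 304 and 303 FPKM, of which retained-intron isoforms held 314, 368 and 547 FPKM in SUZ12 fRIP, and its coding isoforms gave -0.39 (SE 0.18). Of 7 markers of other cell types tested 0 were higher and 1 was lower, CD3D (-1.09, and -0.76 without SUZ12 library 3 or -0.87 without input library 1). PTPRC, for the leukocyte antigen CD45, was detected at 110 to 118 FPKM against 57.4 to 69.1 FPKM (0.87).

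**Figure D4:**
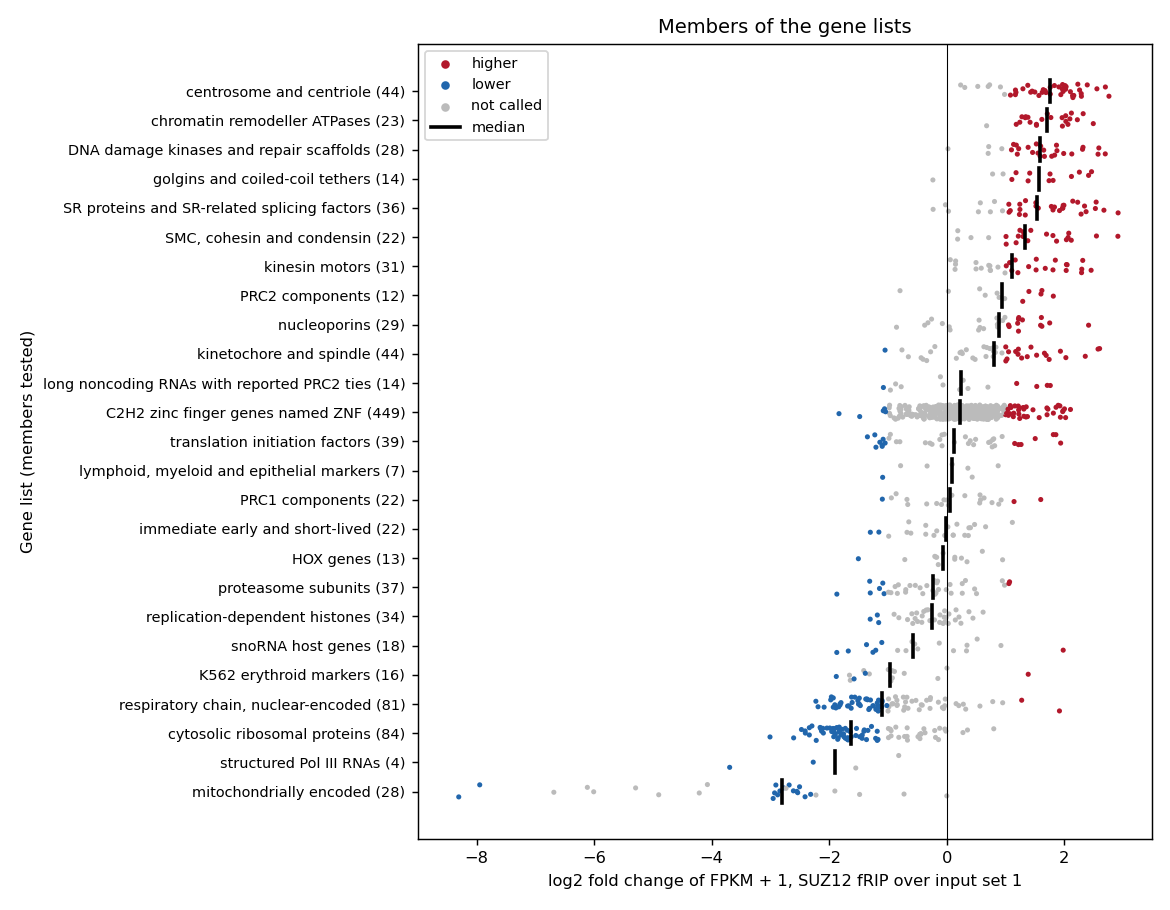
Log2 fold change of FPKM + 1, SUZ12 fRIP over input set 1, of each tested member of 25 gene lists, with red for higher, blue for lower, grey for neither and a black bar at the median. Medians run from 1.76 (centrosome and centriole) to -2.81 (mitochondrially encoded), against -0.02 over all genes tested.

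Noncoding RNAs moved in both directions. RP11-420A23.1, on chromosome 4, measured 39.0, 42.7 and 38.3 FPKM against 4.21, 6.17 and 5.40 FPKM (2.72, SE 0.41) and shares 0% of its words with other transcripts. RP11-464F9.1 (3.36), RP11-618G20.1 (2.84, or 1.62 against set 2) and RP11-158I13.2 (2.73) share 98.6%, 96.1% and 97.7% of their words with neighbouring genes, and GS1-600G8.3 (3.16) is the lncRNA opposite ATXN3L. Of the lower lncRNAs RP11-1143G9.4 lies wholly opposite LYZ and RP11-513I15.6 opposite NUDT3, so these cannot be told from their partners, and AC002480.4 measured 2.66, 4.46 and 3.31 FPKM against 27.1, 18.3 and 18.2 FPKM (-2.31, or -1.59 with all 9 inputs). Of 18 snoRNA host genes 6 were lower, led by SNHG5 (-1.87), and 1 was higher, TAF1D (1.98, or 3.18 with coding isoforms alone), where 8.66% and 13.4% of all genes were. Without SUZ12 library 1 or 2 the higher count was 2.

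Of 4 structured RNA polymerase III transcripts tested 2 were lower. RN7SL1, the RNA of the signal recognition particle, measured 12.1, 15.7 and 9.39 FPKM against 203, 147 and 163 FPKM (-3.70, SE 0.31), and RPPH1, the RNA of ribonuclease P, 302, 359 and 230 FPKM against 1602, 1317 and 1347 FPKM (-2.27, SE 0.22). Of 14 lncRNAs with reported ties to PRC2 that passed the filter 4 were higher and 1 lower (median 0.25), and the lower count was 2 without SUZ12 library 3. LINC-PINT, listed as AC058791.2, was higher by 1.76, FTX by 1.71 and DLEU2 by 1.19, with 39.7, 30.54 and 38.4 FPKM against 13.7, 16.4 and 15.6 FPKM. KCNQ1OT1 was lower, at 0.89 to 1.25 FPKM against 3.33 to 3.37 FPKM (-1.08), but not with all 9 inputs (-0.70) or against input set 3 (-0.35). MALAT1 measured 5571 to 7315 FPKM against 5083 to 5547 FPKM (0.22, SE 1.31) and NEAT1 48.1, 76.6 and 97.9 FPKM against 115, 127 and 127 FPKM (-0.78, SE 0.26), and neither was called.

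The isoforms of a gene showed where in its output the difference lay. Of 104506 isoforms tested 19017 (18.2%) were higher and 5682 (5.44%) lower, so that 77.0% of calls were higher. Centring each library moved the median of all isoforms from 0.13 to -0.18 and that share to 57.6%, and a pseudocount of 0.1 FPKM moved it to 67.7%. Of 19390 isoforms annotated with a retained intron 31.9% were higher and 0.81% lower, of 8351 targets of nonsense-mediated decay 23.6% and 2.31%, and of 42461 protein coding isoforms 14.505% and 8.04%. Processed pseudogenes, spliced copies without introns, went the other way, with 1.37% of 3946 higher and 12.6% lower. Isoform levels are estimates that divide shared reads, so a level near 0 for one isoform can be matched by a gain for another.

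Within a gene the relation with exon number was turned around. In 5635 genes with protein coding isoforms of different exon number the coding isoform with more exons had the higher SUZ12/input ratio in 33.3 ± 0.5% (SD, n = 3), with a median difference of -0.64. In libraries of input set 1 set against one another this share was 50.4 ± 4.1%. Input sets 2 and 3 against set 1 gave 57.7 ± 2.4% and 61.0 ± 1.2%. In CBX3 fRIP the share was 37.02 ± 0.6% and in STAG2 fRIP 54.7 ± 2.1%. The share was 38.9% where the isoforms differed by 1 exon, 30.0% at 2 to 4, 27.2% at 5 to 9 and 35.6% at 10 or more, so it did not fall steadily with the gap. In 5040 genes with both kinds the retained-intron isoform had a higher ratio than the coding isoform in 74.4 ± 1.0% (input 49.2 ± 8.0%), by a median of 0.91. Of 660 genes with 1 isoform called higher and another lower, the higher had fewer exons in 463 and more in 91, and it was a retained-intron isoform in 221 genes while the lower was one in 20.

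Retained-intron isoforms took a larger part of the mRNA genes' output. They held 25.1 to 26.1% of the summed isoform FPKM of mRNA genes in the 3 SUZ12 libraries and 12.9 to 14.2% in input set 1 (means 25.6 and 13.4), 9.78% in set 2 and 9.32% in set 3. Protein coding isoforms held 54.1 ± 0.6% against 72.6 ± 0.7%, and targets of nonsense-mediated decay 8.30 ± 0.17% against 5.71 ± 0.06%, the highest mean of the 24 fRIPs. The SUZ12 libraries did not overlap the inputs in any of the 3, and two-sided exact permutation tests gave p = 0.1 for 3 against 3 libraries and 0.00909 for 3 against all 9 inputs, the smallest each allows. The test against 9 takes the inputs as exchangeable, although they form 3 sets that differ in the retained-intron share. HNRNPH1 fRIP had a larger retained-intron share (29.6%). ADAR (25.4 ± 0.9%), CBP (23.7 ± 1.6%) and CBX3 fRIP (23.7 ± 1.1%) came near and STAG2 fRIP did not (11.97 ± 0.5%).

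**Figure D5:**
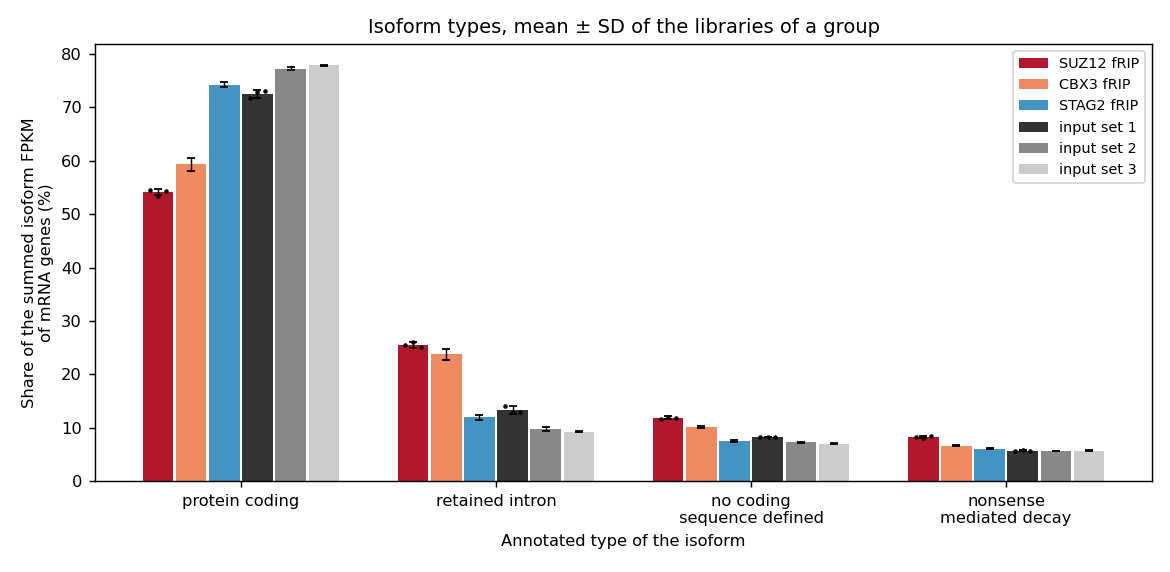
Share (%) of the summed isoform FPKM of mRNA genes held by 4 annotated isoform types in SUZ12, CBX3 and STAG2 fRIP and 3 input sets, bars for means, whiskers for the SD over libraries, points for the SUZ12 and input set 1 libraries. The retained-intron share of SUZ12 fRIP (25.6%) lies near that of CBX3 fRIP and above all input sets.

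The rule for isoforms named the 6 genes with the widest gap between a higher and a lower isoform. EEF1A1, for a translation elongation factor, had a retained-intron isoform (ENST00000488500.1) at 105, 153 and 177 FPKM in SUZ12 fRIP and 9.17, 11.01 and 11.1 FPKM in input, and a coding isoform (ENST00000356303.2) at 49.6, 0.002 and 4.42 FPKM against 665, 669 and 658 FPKM. Of EEF1A1 46.1% of words are shared with processed copies. MLLT4, an adhesion scaffold gene, had a retained-intron isoform of 28 exons at 73.2, 79.4 and 104 FPKM against at most 1.67 FPKM, and a coding isoform of 34 exons at 12.9 to 17.4 FPKM in input and at most 0.63 FPKM in SUZ12 fRIP.

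In CD46 (a complement regulator), GSE1 and BCL2L1 (an inhibitor of apoptosis) both isoforms of the pair are annotated as coding, and in BCL2L1 both have 3 exons and lengths of 2444 and 2574 bases. The higher BCL2L1 isoform measured 39.1, 32.5 and 38.9 FPKM against at most 0.37 FPKM, and the lower at most 1.81 FPKM against 34.6, 28.5 and 24.8 FPKM. In NFAT5 both were targets of nonsense-mediated decay, of 6 exons in the higher isoform and 15 in the lower.

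With protein coding isoforms alone the relation of genes to exon number remained, at a lower level. The correlation was 0.472 ± 0.023, and the medians ran from -0.64 for 1 exon through 0.31 for 9 to 12 exons to 1.06 over 30. Of 12470 mRNAs tested this way 1826 were higher and 1443 lower. Of these 1660 and 895 had the same call with all isoforms, and 22 went from higher to lower. The balance of higher to lower mRNAs thus differed with the isoforms counted.

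Set directly against other fRIPs, which went through the same immunoprecipitation steps, SUZ12 fRIP differed less from CBX3 fRIP than from STAG2 fRIP in the number of calls. Against CBX3 fRIP 1776 genes (6.98%) were higher and 547 (2.15%) lower, a lower count that was 1009 with a pseudocount of 0.1 FPKM and 318 after centring. Against STAG2 fRIP 4028 (15.8%) were higher and 1909 (7.5%) lower. Against the mean of the other 23 fRIPs 3356 (13.2%) were higher and 1662 (6.53%) lower. These comparisons share the SUZ12 libraries with each other and with the input comparison. CCDC18 was higher than in CBX3 fRIP by 2.28, SMC4 by 2.22 and SUZ12 mRNA by 1.86. For EZH1 the difference from CBX3 fRIP was 0.39 (adjusted p = 0.18).

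Over CBX3 fRIP 27 of 44 centrosome genes, 23 of 28 DNA damage genes, 16 of 23 remodellers and 12 of 36 SR genes were higher, and 0 genes of these lists were lower. Of the ribosomal protein genes 4 of 84 were lower than in CBX3 fRIP (median -0.52), and of the mitochondrial RNAs 0 of 28 (median -0.26). Against the mean of the other 23 fRIPs 40 ribosomal protein genes and 9 mitochondrial RNAs were lower.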

How the data were processed

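RNA from K562 cells was sequenced after SUZ12 fRIP and from input. The authors aligned reads with TopHat to hg19, with the GENCODE 18 annotation, and deposited FPKM per gene and isoform for each library, estimated with Cuffdiff 2 (the submitters' processing notes also name Cuffnorm and CASAVA 1.4). The authors' fold changes, p-values and test columns were not used. Exons, lengths, isoform types and sequence came from GENCODE 44 mapped to GRCh37. Genes or isoforms of at least 1 FPKM in at least 2 of 79 libraries were fitted as log2(FPKM + 1) with limma 3.58.1 (R 4.3.3), with a mean for each fRIP and input set, an intensity trend and Benjamini-Hochberg adjustment. A call needed an adjusted p under 0.05 and over 2-fold. Scripts were tested on simulated data, and features were computed in Python 3.11.15. No interval for counting error was computed. Named genes were the PRC2 genes, EIF5B, the 12 mRNAs and 5 lncRNAs of largest change each way (mean of 5 FPKM or more, groups not overlapping), up to 3 called members of each list each way and 6 isoform pairs. Others named were chosen after their values were seen. Members and lists were chosen with earlier results of these data known. Some list members are not reported here. Alternatives covered pseudocount, filter, centring, input set, libraries fitted, replicate block and leaving out libraries.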

Additional observations from a re-analysis of the deposited data

How the results depend on the processing

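Leaving out each SUZ12 or input library gave 3355 to 3461 higher and 2113 to 2191 lower genes against input. Leaving out each SUZ12 library gave 1671 to 1865 and 518 to 636 against CBX3 fRIP, 3982 to 3999 and 1822 to 1945 against STAG2 fRIP, and 3343 to 3359 and 1577 to 1742 against the other 23 fRIPs. It also gave a correlation with exon number of 0.548 to 0.566, and no library of another fRIP was left out. Isoforms numbered 17466 to 18388 higher and 5200 to 5404 lower without each SUZ12 or input library. Genes lower than in CBX3 fRIP numbered 1009 with a pseudocount of 0.1 FPKM and 318 after centring, and lower isoforms 9925 after centring. With all 9 inputs the correlation was 0.296 with length, 0.425 with exon number after length, 0.119 with length after exon number and 0.172 with GAAGNNGA, and the share of genes whose isoform with more exons had the higher ratio was 30.8%. With a mean of at least 5 FPKM the correlation was 0.313 with length and 0.418 with exon number after length, and the share was 28.6%. The most expressed isoform gave 0.501 with exon number. Protein coding isoforms alone, chosen after seeing the data, gave 1826 higher and 1443 lower genes and 0.472 with exon number, 0.243 with length and 0.384 with exon number after length. Among named genes called with all isoforms they turned the direction of SASS6 (-3.94), EIF4A2 (-0.62), PSMC1 (-0.13), PSMD12 (-0.36), ZNF121 (0.082) and TFRC (-0.39). For these genes fewer isoforms were counted. The causes of the other changes were not tested. Of the values of 122 named genes under these alternatives 2068 kept their side of the threshold, 78 no longer passed and 14 newly passed. Another 6 reversed direction where a value passed. A reversal between values that both missed the threshold counts among the 2068. Deviations of same-numbered SUZ12 and input libraries correlated at 0.278, -0.0129 and 0.149, and those of differently numbered ones at -0.254 to 0.152. These values do not settle whether replicate numbers pair the samples. The replicate block in the 6 libraries gave 3404 higher and 2244 lower genes, and 16913 and 5375 isoforms. Having 3 libraries a group limits the precision, and exact tests of 3 against 3 could not go below 0.1.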
